A study of Oryza sativa with 8 samples.

Results

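Chromosome 5 of rice was described here through its A and B compartments and its topologically associating domains (TADs). Its members were all 50-kb bins and all TADs that the deposited lists place on this chromosome, each cultivar in its own coordinates. That gave 600 of 7468 bins in Nipponbare (Nip, a japonica rice) and 612 of 7763 bins in 93-11 (an indica rice). TADs on the chromosome numbered 717 and 698 of 8767 and 8703 in the 2 normal libraries of Nip, and 869 and 944 of 11273 and 11911 in its 2 heat stress (HS) libraries. In 93-11 they numbered 693 and 667 of 8531 and 8317 under normal conditions, and 891 and 863 of 11652 and 11712 after HS. The chromosome was chosen by its number, with the compartment calls and switches of all 12 chromosomes already known, so those calls are given as a description and carry no test.

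Hi-C, which counts ligated contacts between distant stretches of crosslinked chromatin, was performed on the aerial parts of 3-week-old seedlings. Groups were Nip normal, Nip HS, 93-11 normal and 93-11 HS, with 2 replicates each and 8 libraries in all. HS was 45 °C for 36 h in a chamber with high humidity and light lower than during growth. Whether the normal seedlings had that light and humidity is not stated, so temperature cannot be told apart from them.

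In plant nuclei, the A compartment holds most of the active, gene-rich euchromatin, and the B compartment holds repeat-rich heterochromatin, much of it around the centromere. A TAD is a stretch whose loci touch each other more often than loci outside it, and it can hold smaller TADs nested inside. Each bin carried a score, PC1, the leading principal component of its correlated contacts, and a bin was A where PC1 was above 0 and B otherwise. On each chromosome of each library the squares of PC1 summed to 1, so a score is a level relative to the rest of that chromosome and not an absolute contact number. Seedlings hold many cell types, and a change inside cells cannot be told apart from a change in the mix of cells.

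The A and B map of chromosome 5 was the same in outline in all 8 libraries: A at the outer parts of both arms, a long unbroken B middle, and a mosaic of short A and B stretches between them. The last scored bins of the far tip were B. A score was present in all 4 libraries of a cultivar for 564 bins in Nip and 576 in 93-11. Of these, 243 were A in all 4 Nip libraries and 280 were B, and in 93-11 the counts were 264 and 280. With unscored bins bridged, the longest B stretch of Nip ran for 6.85 Mb, from 8050001 to 14900000, and that of 93-11 for 7.1 Mb, from 6500001 to 13600000. The longest A stretch of Nip lay from 26200001 to 29500000 with 530 genes, and that of 93-11 from 25750001 to 30300000 with 701 genes. Both therefore lay near the chromosome's far end. The longest B stretch held 17 of the 36 unscored bins in Nip and 14 of 36 in 93-11.

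**Figure D1:**
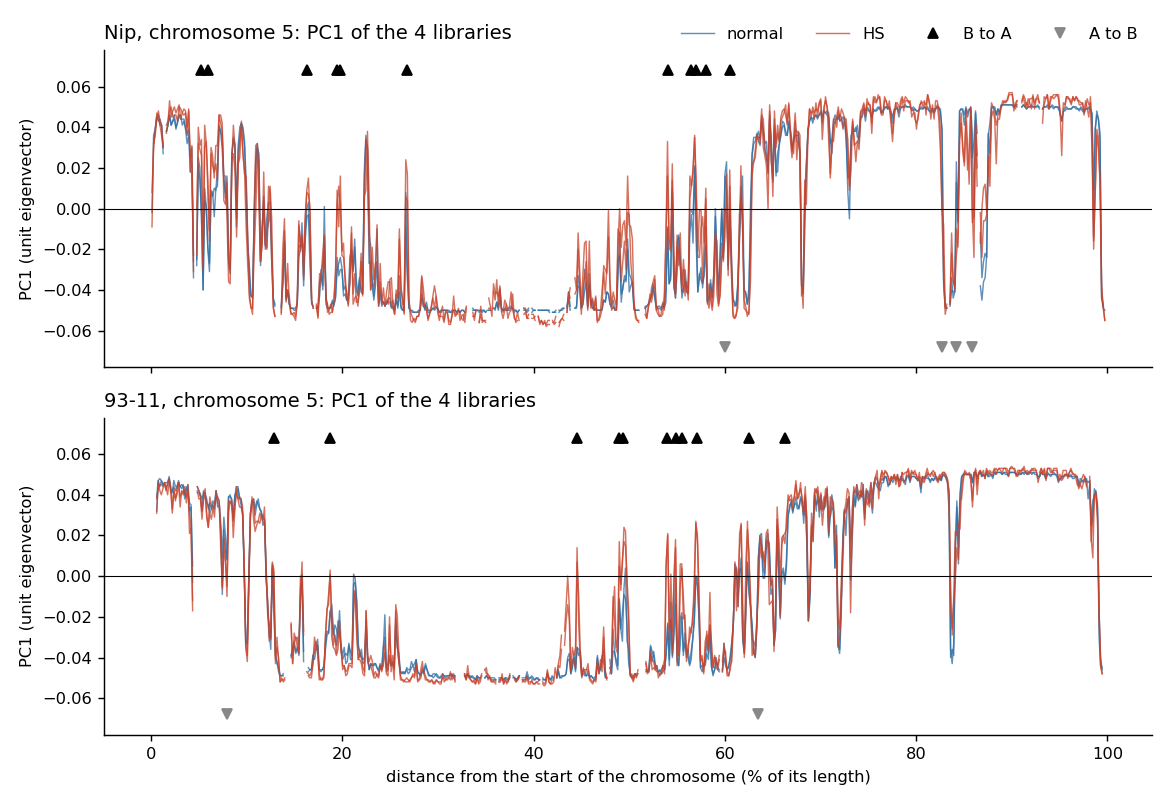
PC1 per 50-kb bin along chromosome 5 (y axis, unit eigenvector) against the distance from the chromosome start in % of its length (x axis), for the 2 normal (blue) and 2 HS (red) libraries of Nip (top) and 93-11 (bottom). Triangles mark runs of bins that switched from B to A (up, 11 runs in each cultivar) or from A to B (down, 4 and 2 runs). In 93-11 most B to A runs lie on the far side of the B middle, and in Nip they lie on both sides of it.

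Without bridging, the 3 longest A stretches of Nip were 21900001 to 24750000, 20500001 to 21850000 and 19350001 to 20350000, and the 3 longest B stretches were 8050001 to 9850000, 13250001 to 14900000 and 6850001 to 7950000. In 93-11 the A stretches were 22400001 to 25550000, 25750001 to 28350000 and 28400001 to 29950000. Its B stretches were 6500001 to 9750000, 5000001 to 5700000 and 5750001 to 6450000. The B stretches did not all move alike after HS. In Nip the stretch from 13250001 had a mean PC1 of -0.0436 and -0.0430 in the normal libraries and -0.0350 and -0.0354 in the HS libraries, so it came closer to 0 with no overlap. The stretch from 8050001 stood at -0.0497 and -0.0499 before and -0.0508 and -0.0503 after HS, slightly deeper in B. In 93-11 the stretch from 5750001 went from -0.0326 and -0.0325 to -0.0395 and -0.0371, and that from 6500001 from -0.0432 and -0.0431 to -0.0457 and -0.0450. Both moved away from 0. No test was run on these stretches, which were found by their calls.

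Genes followed the map. The deposited files give 3300 genes on chromosome 5 in each cultivar, or 5.50 per bin in Nip and 5.39 in 93-11, against 5.50 and 5.22 on the other 11 chromosomes. Stable A bins held 7.33 genes on average in Nip and 7.24 in 93-11, stable B bins 4.21 and 4.04, and the unscored bins 2.67 and 2.31. The difference between A and B, 3.11 genes per bin in Nip and 3.20 in 93-11, ranked 4 and 7 of the 12 chromosomes from the highest. PC1 was oriented by gene annotation in the study's methods, so part of this difference is built in. Stable A bins held 54.0% of the genes of the chromosome in Nip and 57.9% in 93-11.

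The richest bins were not all A. In Nip 5 bins held 13 genes, the highest number, and 4 of them were A in every library, those from 900001 to 950000 and from 26200001 to 26250000 among them. The fifth, from 15050001 to 15100000, was B in every library, with PC1 of -0.036 and -0.037 under normal conditions and -0.015 and -0.037 after HS. In 93-11 the richest bin, from 20350001 to 20400000 with 16 genes, was A throughout. Of the 8 bins with 12 genes, 7 were A throughout, those from 200001 to 250000 and from 2750001 to 2800000 among them. The eighth, from 15250001 to 15300000, was B in every library, with PC1 of -0.036 and -0.043 under normal conditions and -0.017 and -0.024 after HS. The files do not pair bins with gene names, and no annotation of their build was at hand, so no gene is named.

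Cut into windows of 5 Mb, the share of A bins and the number of genes both dipped in the middle. In Nip, A made up 57.9% and 54.7% of the scored bins in the first window of the normal libraries, 4.21% in both in the second, 0 in both in the third, 29.9% and 32.0% in the fourth, 92.9% and 94.9% in the fifth and 84.8% and 87.0% in the last. In 93-11 the same shares were 73.6% and 74.7%, 0 and 1.05%, 0 and 0, 14.9% and 11.7%, 93.0% and 92.0%, and 94.4% in both. The near arm of 93-11 was thus more often A than that of Nip and the window from 15 to 20 Mb less often. Coordinates of the cultivars are not aligned, so windows of the same number need not hold the same loci. The third window had 2.83 genes per bin in Nip and 2.78 in 93-11, and the last 7.36 and 7.33.

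**Figure D2:**
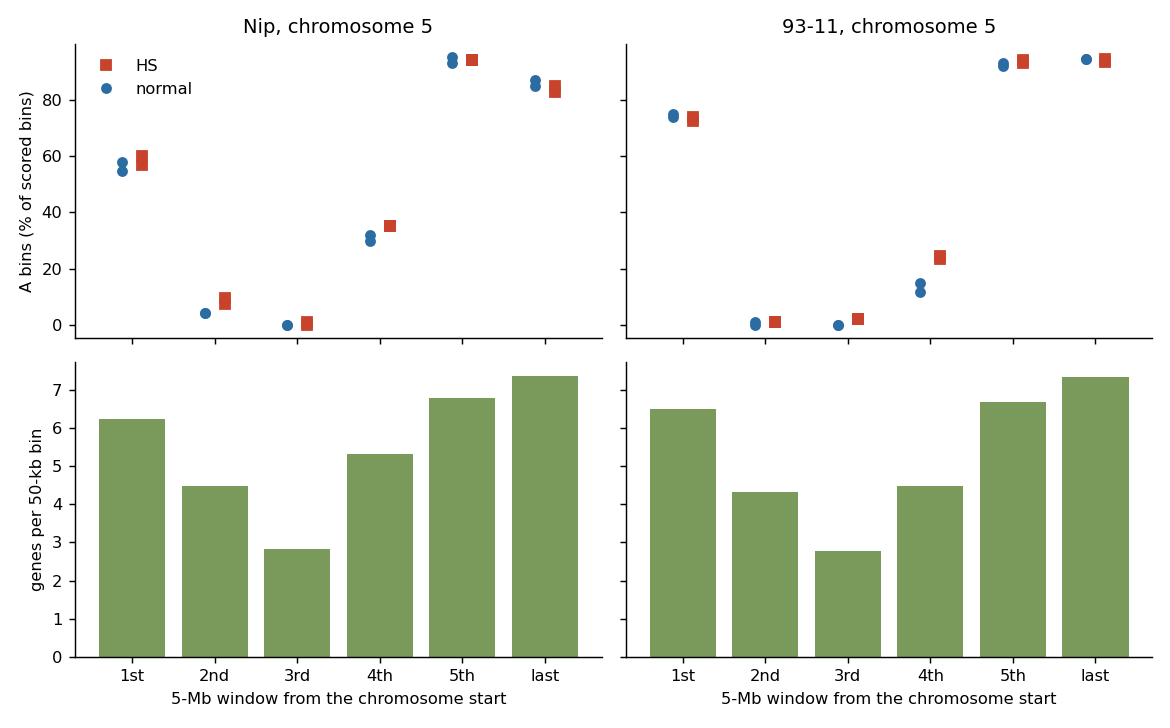
Share of A bins among scored bins in % (top, one point per library, circles normal and squares HS) and genes per 50-kb bin (bottom, bars) in 5-Mb windows of chromosome 5, for Nip (left) and 93-11 (right). The last window runs to the chromosome's end. In the 4th window the HS libraries lie above the normal libraries in both cultivars, at 35.1% in Nip and at 23.4% and 24.5% in 93-11.

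After HS the share of A bins on the whole chromosome was higher in both cultivars. In Nip it was 45.7% and 46.3% in the normal libraries and 47.9% and 47.2% in the HS libraries. In 93-11 it was 47.7% and 47.4% against 49.5% and 49.8%. The groups did not overlap in either cultivar, and the mean rise was 1.51 percentage points in Nip and 2.08 in 93-11. On the other 11 chromosomes together the share changed by -0.00772 points in Nip and by 1.24 points in 93-11. Averaged over both cultivars, the share on chromosome 5 rose by 1.18 points more than on the other 11. The rise in Nip ranked 1 of the 12 chromosomes, where the highest of the others was 1.19 on chromosome 4, and the rise in 93-11 ranked 5. These ranks rest on where PC1 is cut. Once each library's PC1 was centred on its chromosome median, the difference was 0 in Nip and 0.260 points in 93-11, and 0.104 points against the other 11, since centring fixes the share of A near the middle.

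The window from 15 to 20 Mb changed the most in 93-11. There the A share went from 14.9% and 11.7% to 23.4% and 24.5%, and mean PC1 from -0.0278 and -0.0283 to -0.0214 and -0.0215. In Nip the same window went from 29.9% and 32.0% to 35.1% in both, and mean PC1 from -0.0152 and -0.0145 to -0.0122 and -0.0127. Groups did not overlap in any of these 4 sets of values, but for mean PC1 that was so in every window of both cultivars. The A share was also apart in other windows. In Nip the window from 5 to 10 Mb went from 4.21% in both to 7.37% and 9.47%. In 93-11 the window from 10 to 15 Mb went from 0 in both to 2.25% in both.

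A bin counted as switching only if the 2 normal libraries carried the same call and the 2 HS libraries carried the other. In Nip 13 bins of chromosome 5 went from B to A, 2.30% of the 564 scored bins (exact 95% Clopper-Pearson interval 1.23 to 3.91%, counting error only), against 1.05% of all bins of the genome. Only 4 went from A to B, 0.709% (0.194 to 1.81%), against 1.04% genome-wide. In 93-11 14 bins went from B to A, 2.43% of 576 (1.34 to 4.04%), against 1.71%, and 2 from A to B, 0.347% (0.0421 to 1.25%), against 0.793%. The share of B to A ranked 1 of 12 chromosomes in Nip and 3 in 93-11, and that of A to B ranked 8 and 9. On the other 11 chromosomes together, B to A made up 0.942% and A to B 1.07% in Nip, and 1.65% and 0.831% in 93-11. The intervals treat bins as independent, although some neighbouring bins switched together, and they leave out the spread between libraries. They are therefore no test against the genome. The chromosome was also singled out with these counts known, so the excess of B to A is a description.

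**Figure D3:**
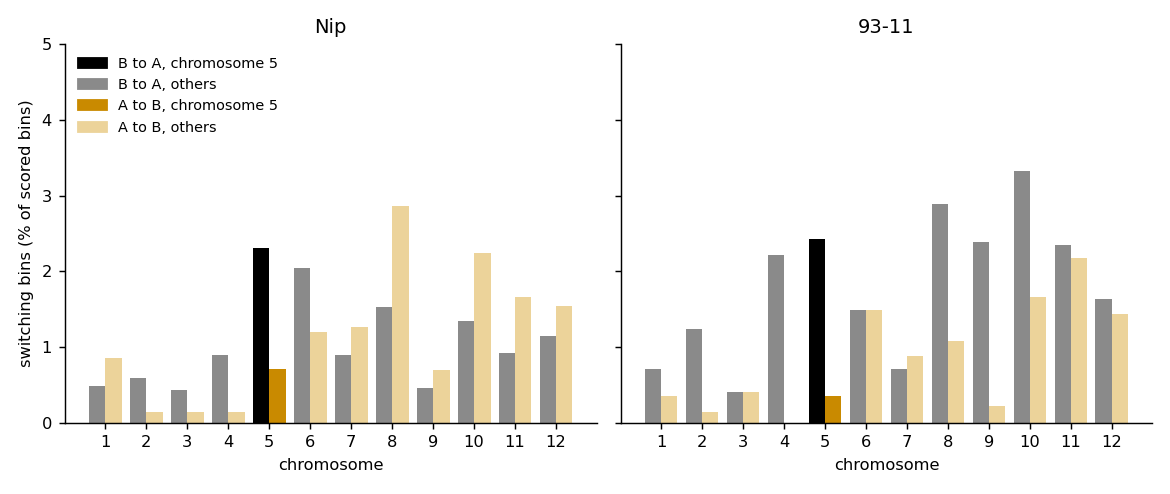
Bins that switched compartment after HS in % of the scored bins (y axis) on each of the 12 chromosomes (x axis), B to A as black or grey bars and A to B as yellow bars, in Nip (left) and 93-11 (right). Chromosome 5, in the dark bars, stands at 2.30% B to A and 0.709% A to B in Nip and at 2.43% and 0.347% in 93-11.

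Most switching bins lay close to 0 on at least one side. When both condition means had to be at least 0.25 SD of the chromosome from 0, 2 B to A bins and 1 A to B bin were left in Nip, and 3 and 0 in 93-11. With PC1 centred on the median of the chromosome, Nip had 7 bins from B to A and 9 from A to B, and 93-11 had 8 and 6. Centring fixes the share of A bins and so forces the counts of both directions to be about equal, which tells nothing of the balance between them. The replicates of 1 condition also differed in their calls: in 13 bins between the normal and 12 between the HS libraries of Nip, and in 10 and 10 in 93-11. Between conditions 28 to 30 calls differed in Nip and 20 to 32 in 93-11.

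Between 15 and 20 Mb, beyond the B middle, lay 7 of the 13 in Nip and 9 of the 14 in 93-11, or 7.22% and 9.57% of the scored bins of that window. These windows were laid after the positions had been seen. With windows shifted by 2.5 Mb, the fullest held 6 and 10. Of the A to B bins of Nip, 3 of 4 lay from 24750001 onwards, in the gene-rich far arm. A stable bin of the new compartment was next to 4 of the 13 B to A bins of Nip and 3 of the 14 of 93-11, so most did not extend an existing A stretch by a single step. B to A bins held 5.31 genes on average in Nip and 5.14 in 93-11, between the averages of stable B and stable A, and A to B bins held 7.25 and 7.50.

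The longest run of Nip, 3 bins from 16850001 to 17000000 with 20 genes, had a mean PC1 of -0.0107 and -0.00167 in the normal libraries and 0.012 and 0.015 in the HS libraries. It bordered a stable A bin on its right. In 93-11 there were 3 runs of 2 bins. That from 16450001 to 16550000, with 3 genes, went from -0.031 and -0.0305 to 0.0125 and 0.014, and this was the most distant from 0 before HS. That from 15050001 to 15150000, with 11 genes, went from -0.019 and -0.0135 to 0.0125 and 0.015. That from 17400001 to 17500000, with 13 genes, went from -0.0025 and -0.0005 to 0.023 and 0.022, and its first bin was at 0.000 in both normal libraries, which the files call B. In all 4 runs every HS library lay above every normal library, which the rule for a switch fixes in advance.

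Of the single B to A bins of Nip, that from 8000001 to 8050000, with 4 genes, rose the furthest, from -0.035 and -0.029 to 0.004 and 0.017. It lay at the near edge of the longest B stretch. The bin from 5900001 to 5950000 went from -0.024 and -0.030 to 0.016 and 0.001, and that from 16150001 to 16200000 from -0.010 and -0.009 to 0.033 and 0.016. The bin from 1550001 to 1600000 went from -0.004 and -0.003 to 0.034 and 0.026. Of these 4, that last bin alone bordered a stable A bin.

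In the other direction, the bin of Nip from 24750001 to 24800000, with 5 genes, fell from 0.039 and 0.038 to -0.004 and -0.001. It stood between the end of the longest unbridged A stretch and a stable B bin. The bin from 25200001 to 25250000, with 8 genes, went from 0.013 and 0.023 to -0.010 and -0.023, and that from 25700001 to 25750000, also with 8, from 0.037 and 0.025 to -0.007 and -0.001. The bin from 17950001 to 18000000 went from 0.017 and 0.016 to -0.014 and 0.000, and its second HS value counts as B only because 0.000 does. None of the 4 reached the depth of the B middle.

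In 93-11 the single B to A bin from 13600001 to 13650000, with 5 genes, moved the furthest, from -0.035 in both normal libraries to 0.014 and 0.007. It split the B middle, ending the longest B stretch on its left. The bin from 16950001 to 17000000 went from -0.018 and -0.020 to 0.004 and 0.006, that from 16750001 to 16800000 from -0.014 and -0.001 to 0.018 and 0.014, and that from 14950001 to 15000000 from -0.011 and -0.012 to 0.017 and 0.005. The bin from 20250001 to 20300000, between 2 stable A bins, went from -0.004 and -0.002 to 0.021 and 0.016. The remaining 3, starting at 3900001, 5700001 and 19100001, ended between 0.001 and 0.012. The 2 A to B bins, from 2400001 to 2450000 and from 19400001 to 19450000, fell from 0.008 in both to -0.005 and -0.010 and from 0.009 in both to -0.006 and -0.009.

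**Figure D4:**
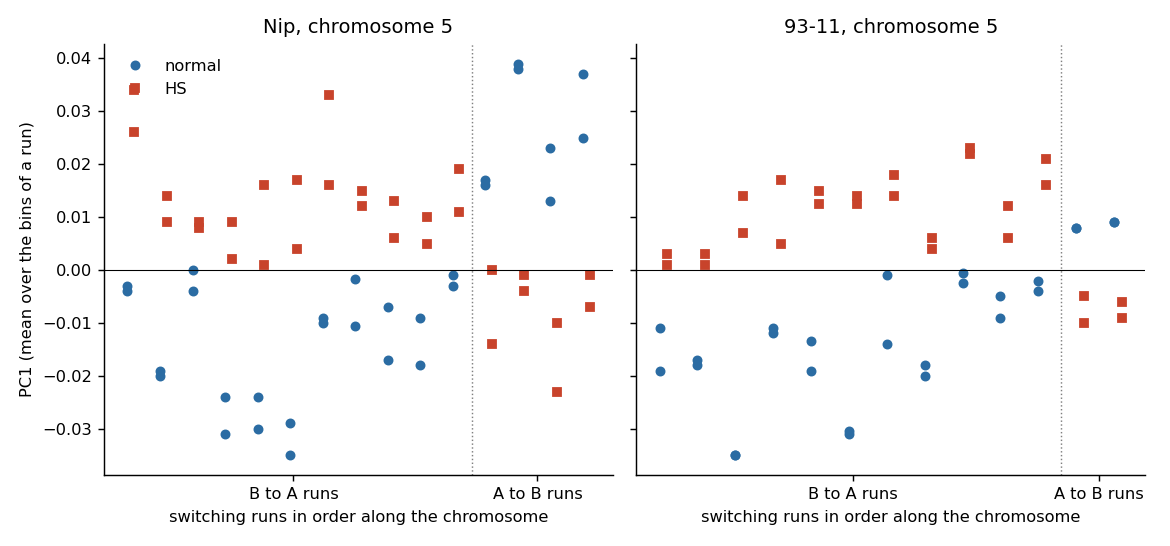
PC1 of each switching run of chromosome 5 (y axis, mean over the bins of a run), one point per library, circles normal and squares HS, with B to A runs left of the dotted line and A to B runs right of it, each in order along the chromosome (x axis), for Nip (left) and 93-11 (right). Normal values of B to A runs reach down to -0.035 in both cultivars, and most HS values stay below 0.02.

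PC1 per bin was also compared between HS and normal with limma over all bins of the genome, with Benjamini-Hochberg adjustment and a threshold of 0.05. In Nip 16 bins of chromosome 5 were higher in HS, 2.84%, against 2.26% of all bins, and 9 were lower, 1.60%, against 2.26%. In 93-11 10 were higher, 1.74%, against 1.79%, and 5 lower, 0.868%, against 0.793%. The shares of chromosome 5 were thus near those of the genome. The calls changed with single libraries. No bin of chromosome 5 was called in Nip without normal replicate 1, normal replicate 2 or HS replicate 1. In 93-11 none was called without normal replicate 1, normal replicate 2 or HS replicate 2, and without HS replicate 1 there were 7 higher and 0 lower. At an unadjusted p below 0.05, the fits with no call had 60 to 167 higher and 29 to 120 lower bins in Nip and 57 to 95 and 30 to 81 in 93-11. Without HS replicate 2 of Nip, 24 were called higher and 12 lower. With the replicate number as a block there were 0 calls in either cultivar, while 116 higher and 84 lower bins of Nip and 85 and 65 of 93-11 had an unadjusted p below 0.05.

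The bins with the largest called rise in Nip all lay between 1550001 and 1800000 on the near arm. They were the B to A bins from 1550001 to 1600000 and from 1750001 to 1800000, with 0.0335 and 0.0309, and the A bin from 1700001 to 1750000, which rose by 0.0314 from 0.001 in both normal libraries to 0.033 and 0.032. Their adjusted p from limma was 0.0472, 0.0437 and 0.0362. The largest called falls were the A to B bin from 24750001 to 24800000, with -0.0410 (limma adjusted p = 0.0362), and 2 bins near the far end that stayed A. Of these, that from 29550001 to 29600000 went from 0.039 in both to 0.010 and 0.007, and that from 29700001 to 29750000 from 0.033 and 0.037 to 0.012 and 0.013 (limma adjusted p = 0.0362 and 0.0463). In 93-11 the 3 largest called rises were switching bins named above, from 13600001, 16450001 and 16500001, with 0.0456, 0.0440 and 0.0439 (limma adjusted p = 0.0331, 0.0191 and 0.0191). The falls were smaller, led by the A to B bin from 19400001 with -0.0165, the A bin from 1250001 to 1300000 with -0.0107 and the B bin from 6300001 to 6350000 with -0.00996 (limma adjusted p = 0.0373, 0.0367 and 0.0450). In both cultivars limma used the same PC1 values that gave the switch calls, so its p-values are no separate support for a switch.

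TADs became more numerous and smaller on chromosome 5 in the HS lists of both cultivars. Their number went from 717 and 698 to 869 and 944 in Nip, a mean of 707.5 ± 13.4 (SD, n = 2) against 906.5 ± 53.0, and from 693 and 667 to 891 and 863 in 93-11, 680 ± 18.4 against 877 ± 19.8. That was 1.28 times the normal number in Nip and 1.29 times in 93-11. The median size went from 65 and 70 kb to 45 and 40 kb in Nip, and from 75 kb in both to 50 and 55 kb in 93-11. Groups did not overlap, and the exact two-sided permutation test gave p = 0.333 for each, the smallest that 2 against 2 libraries allow. Small TADs made the difference. TADs of at most 40 kb went from 26.6% and 23.6% to 49.9% and 56.5% of the list in Nip and from 22.8% and 20.2% to 44.2% and 37.1% in 93-11. Counting TADs of over 40 kb alone, the mean number fell by 106.5 in Nip and by 13.5 in 93-11, where the groups overlapped. Outermost TADs alone had a median of 90 and 100 kb against 60 and 55 kb after HS in Nip. In 93-11 they had 97.5 and 130 kb against 75 and 100 kb, so the groups overlapped.

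The nesting became shallower and the chromosome less covered. Outermost TADs went from 210 and 191 to 329 and 338 in Nip and from 194 and 189 to 283 and 251 in 93-11. TADs at the third level of nesting or deeper made up 31.4% and 33.0% of the list of Nip and 16.9% and 18.1% after HS, and 36.8% and 34.9% against 25.6% and 28.9% in 93-11. The share of the chromosome inside any TAD went from 98.4% in both to 86.6% and 85.4% in Nip and from 97.7% and 98.5% to 88.8% and 93.5% in 93-11. HS libraries lay on one side of the normal libraries in all of these measures. Depth and contact counts were not analysed here, and their part in the TAD numbers was not tested.

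Long stretches outside any TAD were found in the HS lists, the longest of each library inside the B middle. The longest in a normal library was 40 kb in each cultivar. In Nip HS replicate 1 the longest was 245 kb, from 9870001 to 10115000, and a second of 155 kb ran from 11500001 to 11655000. Nip HS replicate 2 had that second gap too, from 11505001 to 11660000, as its longest. In 93-11 the longest ran from 9815001 to 10005000 in HS replicate 1, 190 kb, and from 9800001 to 10035000 in HS replicate 2, 235 kb, and HS replicate 1 had another of 180 kb from 15560001. Of the 6 bins that the 245-kb gap touches, 3 had no PC1, as did 4 of the 5 bins at the longest gap of either HS library of 93-11. Other long gaps held scored bins alone: that of 110 kb from 9460001 in Nip HS replicate 1, those of 70 kb from 25830001 and 13380001 in Nip HS replicate 2, and that of 120 kb from 15915001 in 93-11 HS replicate 1. So did the next longest of 93-11 HS replicate 2, 80 kb from 27445001 and 55 kb from 30310001, on the far arm.

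The largest outermost TADs that both replicates shared, at 80% of each other's length, differed between conditions. Positions are those of replicate 1, and genes are those of bins wholly inside. In Nip the 3 largest under normal conditions were 610 kb from 15095001 to 15705000, in B with 52 genes, 460 kb from 240001 to 700000, in A with 68, and 460 kb from 11685001 to 12145000, in B with 15. The first was overlapped by 5 and 8 outermost TADs in the HS libraries, the largest of 195 and 285 kb. After HS the largest shared one was 280 kb, from 3835001 to 4115000 in B. The third largest, from 1515001 to 1775000, covered the B to A bin at 1550001, and a single TAD of 235 kb or 2 of up to 275 kb lay there under normal conditions. In 93-11 the largest normal TAD was 645 kb, from 15390001 to 16035000 in B, and still had overlapping TADs of 450 and 485 kb after HS. The largest shared after HS was 365 kb, from 4085001 to 4450000 in B, and the largest outermost TADs overlapping it under normal conditions had 365 and 355 kb. Counts of such shared outermost TADs were 100 and 60 in Nip and 93 and 48 in 93-11, normal and HS.

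Size fell in both compartments. TADs with their midpoint in stable A bins had a median of 60 ± 0 kb in normal Nip libraries and 37.5 ± 3.54 kb after HS, and those in stable B bins 70 ± 7.07 and 42.5 ± 3.54 kb (SD, n = 2). In 93-11 the medians were 67.5 ± 3.54 and 51.25 ± 5.30 kb in A and 82.5 ± 3.54 and 52.5 ± 3.54 kb in B. The number per stable bin rose alike in A and B: 1.29 and 1.36 times in Nip, and 1.32 and 1.33 times in 93-11. The difference between A and B was not tested.

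Replicates shared fewer TADs after HS. Of the TADs of a normal Nip library, 52.3% and 52.6% were found in the other normal library at 80% overlap, against 28.8% and 26.5% between HS libraries. Normal TADs were found in HS libraries to 27.8 to 33.5%. In 93-11 the shares were 49.8% and 52.3%, 26.6% and 27.0%, and 27.9 to 29.5%. In the other direction, HS TADs were found in normal libraries to 20.6 to 26.8% in Nip and to at most 22.6% in 93-11. For each HS library of either cultivar that was less than in the other HS library. The other 11 chromosomes also had a drop between replicates, from 51.6% and 52.4% to 32.9% and 31.3% in Nip. In 93-11 their shares went from 46.8% and 47.8% to 26.4% and 26.2%. A 5-kb step is a larger part of a smaller TAD, and the part of TAD size in these shares was not tested.

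Boundaries were counted as lost where both normal lists had them within 5 kb and neither HS list did, and as gained in the opposite case. In Nip 42 of 357 shared normal boundaries of chromosome 5 were lost, 11.8%, against 13.7% of the genome, and 177 of 490 shared HS boundaries were gained, 36.1%, against 34.7%. In 93-11 54 of 308 were lost, 17.5%, against 19.0%, and 154 of 365 gained, 42.2%, against 41.7%. Chromosome 5 was thus near the genome in both. Leaving out 1 library removes 1 of the conditions a boundary must meet, and gave 81 to 115 lost and 242 to 415 gained in Nip and 123 to 125 and 199 to 370 in 93-11. Switching bins held 0 of the 42 lost and 15 of the 315 kept normal boundaries in Nip, and 0 of 54 and 6 of 254 in 93-11. They held 4 of the 177 gained and 13 of the 313 kept HS boundaries in Nip, and 8 of 154 and 4 of 211 in 93-11. Switching bins made up 3.01% of the scored bins in Nip and 2.78% in 93-11, and none of these shares was tested. Of the boundaries in stable bins, B held 60.5% of the gained and 43.7% of the kept HS ones in Nip, and 54.9% and 42.8% in 93-11, with no test. Lost boundaries leaned the same way, with 51.4% in B against 44.9% of the kept normal ones in Nip, and 46.8% against 39.7% in 93-11. The stable bins themselves were 280 B and 243 A in Nip, and 280 and 264 in 93-11. By window, the gained share was lowest between 20 and 25 Mb in both, at 29.8% and 30.6%.

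Against the other 11 chromosomes, the number of TADs rose somewhat less on chromosome 5, where it was 1.28 times the normal number against 1.33 times in Nip and 1.29 against 1.40 times in 93-11. The log2 ratio of its TADs to those of the other 11 was -3.49 and -3.52 in the normal libraries of Nip and -3.58 and -3.54 after HS, and -3.50 and -3.52 before against -3.59 and -3.65 in 93-11. The mean change over both cultivars was -0.0846 (exact two-sided permutation test within cultivars, 36 relabellings, p = 0.0556, the smallest they can give), and HS libraries lay below normal libraries in both. It does not pass the threshold, and p was 0.111 with outermost TADs alone and 0.5 with TADs of over 40 kb alone. The ratio of HS to normal ranked 8 of 12 in Nip and 9 in 93-11, where the other chromosomes ran from 1.08 to 1.55 and from 0.988 to 2.00. The median TAD size of the other 11 went from 67.5 to 40 kb in Nip and from 75 to 45 kb in 93-11, against 67.5 to 42.5 and 75 to 52.5 kb on chromosome 5. Compartment borders between neighbouring scored bins went from 1.40 to 1.80 per Mb on chromosome 5 of Nip and from 1.05 to 1.57 in 93-11, against 1.66 to 1.85 and 1.76 to 1.85 on the other 11.

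**Figure D5:**
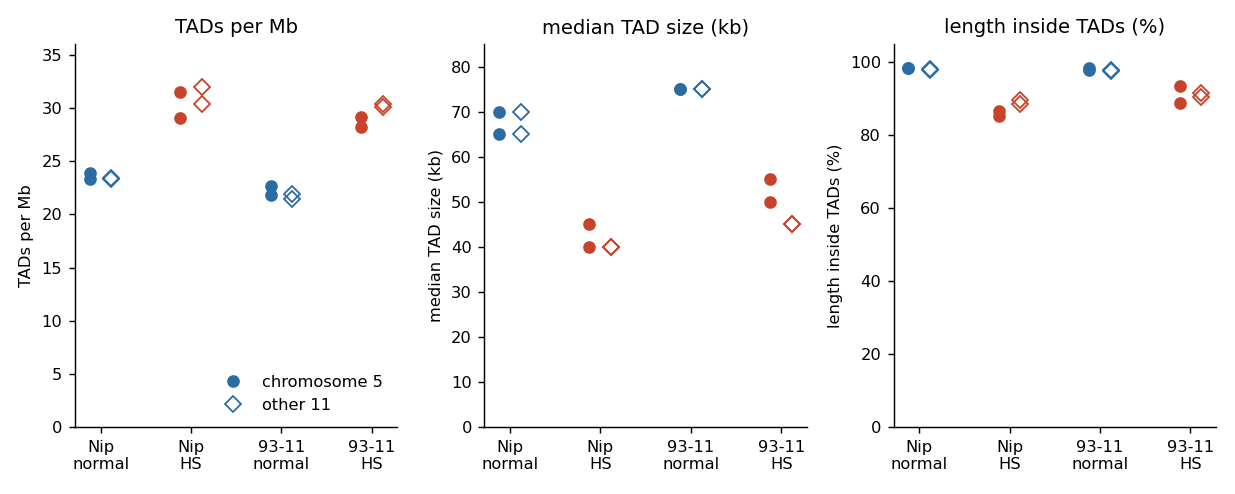
TADs per Mb (left), median TAD size in kb (middle) and % of the length inside TADs (right) for each library, on chromosome 5 (filled circles) and on the other 11 chromosomes together (open diamonds), normal in blue and HS in red. On chromosome 5 the HS libraries have 28.2 to 31.5 TADs per Mb and the normal libraries 21.8 to 23.9.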

How the data were processed

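Per the labels and the methods of the study, the authors digested crosslinked chromatin of seedlings with Dpn II and mapped read pairs per library. The submitters' processing notes name cutadapt 1.0, BWA and HiC-Pro 2.8.1, the methods Bowtie2 within HiC-Pro. The deposited score is PC1 per 50-kb bin, rounded to 3 decimals by the authors. The methods describe HOMER at a coarser resolution and hicFindTADs, which gives no nested domains, so the tools behind these files, the genome build and the annotation are not given in the sources used here. The deposited gene number per bin is a whole-number count. The deposited TAD lists give start, end and nesting level on a 5-kb grid. 0 columns belonged to other samples.

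Comparisons used bins with a score in each of a cultivar's 4 libraries. limma 3.58.1 (R 4.3.3) was fitted on PC1 over all bins of a cultivar. Rounding ties replicates, so uniform digits within the rounding were added and the p was the median of 21 draws. On simulated data this recovered 73.9% of bins changed by 0.02 and all changed by 0.04 over 7040 bins of Nip, with 4.84% of calls false, and 84.2% and all over 7317 bins of 93-11, with 6.12% false. Without added digits 0% of the simulated calls were false in Nip and 1.36% in 93-11, and 30.7% and 46.5% of changes of 0.02 were recovered. The simulated spread of a bin did not depend on its PC1, so the simulation does not give the error rate on the real scores. Leaving out the digits gave fewer calls in the simulation, 133 against 186 in Nip and 147 against 196 in 93-11. On the real scores of chromosome 5 it gave more, 64 higher and 39 lower against 16 and 9 in Nip. In 93-11 it gave 52 and 45 against 10 and 5. The simulation thus cannot decide whether digits should be added. TAD numbers and sizes were compared with exact two-sided permutation tests. The depth per library is not in these files, so no interval that needs it is given. Whether replicates came from separate plantings is not stated, and p-values measure the spread between libraries alone. Samples were not paired by replicate number except in the replicate block, and whether the numbers mark pairs is not stated. The chromosome, the measures and the alternatives were chosen with earlier results of these data known. Named regions were all switching runs of 2 or more bins, single switching bins (all where 8 or fewer in a direction, otherwise the 4 with the largest difference), the 3 largest called rises and falls, the 3 longest stretches and gaps, the 3 bins with most genes and the 3 largest shared outermost TADs. No sequence was printed, since no genome of the files' build was used here.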

Additional observations from a re-analysis of the deposited data

Results flagged for a closer look

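Mean PC1 moved in opposite directions in the 2 cultivars in 3 windows of chromosome 5, with every HS library on one side of every normal library within each cultivar. In the first 5 Mb it rose in Nip, from 0.00427 and 0.00345 to 0.00695 and 0.00693, and fell in 93-11, from 0.0176 and 0.0180 to 0.0160 and 0.0159, a difference of changes of -0.00491 (93-11 minus Nip). From 5 to 10 Mb it went from -0.0409 and -0.0407 to -0.0385 and -0.0383 in Nip and from -0.0405 and -0.0403 to -0.0430 and -0.0422 in 93-11, a difference of -0.00467. From 25 Mb to the end it went from 0.0360 and 0.0362 to 0.0353 and 0.0351 in Nip and from 0.0427 and 0.0430 to 0.0436 and 0.0435 in 93-11, a difference of 0.00161. These differences were not tested. Mean PC1 of the HS libraries lay on one side of the normal libraries in every other window of both cultivars too. The smallest such change was 0.000232, in Nip from 20 to 25 Mb, so groups that do not overlap do not mark out these 3 windows. PC1 has a fixed sum of squares on the chromosome, and windows of the cultivars are not aligned.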

How the results depend on the processing

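Of 164 alternatives, 95 kept the direction or stayed within the range set for a count or value, 67 moved a result and 2 turned it. The permutation tests could not pass the threshold in any alternative, so for those results the direction alone was compared. A kept direction can go with a much smaller size: centring cut the A share difference of 93-11 from 2.08 to 0.260 points and still counts as kept. Calls from the replicates' mean gave 21 bins from B to A in Nip and 7 from A to B in 93-11. Means of at least 0.25 SD left 1 (A to B) and 2 (B to A) in Nip and 0 and 3 in 93-11. Centring gave 9 and 7, and 6 and 8, and cut the A share difference to 0 in Nip, 0.260 points in 93-11 and 0.104 points against the other 11, which its construction brings about. Runs of at least 2 bins held 0 and 3, and 0 and 6. Leaving out a library gave 6 to 8 and 15 to 17 in Nip and 2 to 5 and 14 to 17 in 93-11, A to B and B to A.

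limma on values as deposited called 64 bins higher and 39 lower in Nip and 52 and 45 in 93-11, and quantile normalization called 8 higher in Nip. Leaving out a library gave 0 to 24 higher and 0 to 12 lower in Nip and 0 to 7 and 0 in 93-11. With the replicate block there were 0 calls of any kind. Replicate numbers are shared by the groups, and whether same-numbered libraries share a planting or preparation is not stated. The replicate differences of normal and HS correlated with r = 0.0182 in Nip and 0.0136 in 93-11 over all bins, which cannot decide it. On chromosome 5 alone r was 0.0663 and -0.176, and a crossed replicate block in 93-11, chosen after the data were seen, also gave 0 calls, with 90 higher and 63 lower at an unadjusted p below 0.05.

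TADs of over 40 kb alone turned the difference in number, to -106.5 in Nip and -13.5 in 93-11, where the groups overlapped. All TADs gave 161.5 to 236.5 and 183 to 211 when a library was left out, and the median size -27.5 to -22.5 and -25 to -20 kb. Boundaries at the same position gave 93 lost and 117 gained in Nip and 83 and 96 in 93-11, a tolerance of 10 kb 17 and 28 lost, and outermost TADs 20 lost and 114 gained in Nip and 33 and 63 in 93-11. Leaving out a library gave 81 to 115 and 242 to 415 in Nip, and 123 to 125 and 199 to 370 in 93-11. Genes per bin in A minus B were 3.31 in Nip and 3.41 in 93-11 with scores of at least 0.25 SD alone, 3.06 to 3.11 and 3.16 to 3.20 with a library left out. The A share difference ran from 1.15 to 1.86 and from 1.91 to 2.26 points. Against the other 11 chromosomes, the TAD number ran from -0.0990 to -0.0701 (log2) and the A share from 1.02 to 1.34 points. The cause of these differences was not tested.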
